A study of Drosophila melanogaster with 2 samples.

Results

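Of the 1487 STAT92E peaks in the deposited list, 7 were assigned to 3 genes of the cell surface and the cytoskeleton, with 4 at Bsg, 1 at zip and 2 at siz. They were taken as the peaks whose chromosome, start and end equal the intervals that the published annotation assigns to these genes. The rule itself used no measured value, but the intervals were called on these same data and then selected for publication. The 3 genes are part of a published selection of 30 putative targets with 59 peaks. The list came from adult midguts of W1118 background flies, with the hindgut and Malpighian tubules removed. The temperature-sensitive driver esg-Gal4, Gal80ts (esgts) expressed the ligand Upd and the transcription factor STAT92E for 10 days at 29°C. The driver acts in midgut progenitors, that is, in intestinal stem cells and enteroblasts, whereas the chromatin came from the whole dissected tissue. About 400 guts were fixed in formaldehyde (1%, 15 minutes), and chromatin was precipitated with an antibody raised in mouse against a polypeptide of STAT92E. This gave 1 ChIP library, and 1 library without antibody from the same genotype was the input. Both libraries carry the same transgenes, and a ChIP library from flies without them was not analysed here. There is no replicate of either library, so every interval below covers counting error only and no test between conditions was possible. Binding in more cells and stronger binding in each cell cannot be told apart in chromatin from whole tissue.

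In the JAK/STAT pathway, Upd ligands bind the receptor Domeless, the kinase Hopscotch is activated, and phosphorylated STAT92E enters the nucleus and binds palindromic sites of the TTC...GAA type. In the midgut the pathway drives stem cell division and the differentiation of daughter cells, processes in which cells change shape and contacts. Bsg (Basigin, CG31605) encodes a transmembrane glycoprotein of the immunoglobulin superfamily, whose mammalian counterpart is also known as CD147. zip (zipper, CG15792) encodes the heavy chain of non-muscle myosin II, the motor that contracts actin networks. siz (schizo, also called loner, CG32434) encodes a guanine nucleotide exchange factor for Arf GTPases, known in the fly embryo for its role in myoblast fusion. In the Release 6 gene records, used here for names and neighbours alone, Bsg and zip have no other gene record within or across them, and CG43072 lies within siz. Positions below are those of the list, whose build the submitters' processing notes name as dm3, and the places within genes are those of the published annotation, which was not checked against gene models here.

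The strongest signal at the 3 genes lay in introns of Bsg and zip. The second-intron peak of Bsg held the most ChIP reads (301.9 normalized reads), and the fourth-intron peak of zip was close behind (250.9) and stood highest in the list, at rank 23. Both siz peaks were intermediate (122 and 123 reads), and the other 3 Bsg peaks were weak (24.5 to 51.2 reads). A normalized read is the deposited reading of a library within a peak, in which reads that lie partly in the peak appear to count in part. The 7 peaks had a median of 122 ChIP reads, against 56.9 over the whole list and 123 over the 59 annotated peaks. Their median listed log2 ratio of ChIP to input was 5.40, against 5.35 over the list and 5.64 over the annotated peaks. As a group they thus held more reads than the median peak of the list at a near-equal listed ratio, a description of a selected set.

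**Figure D1:**
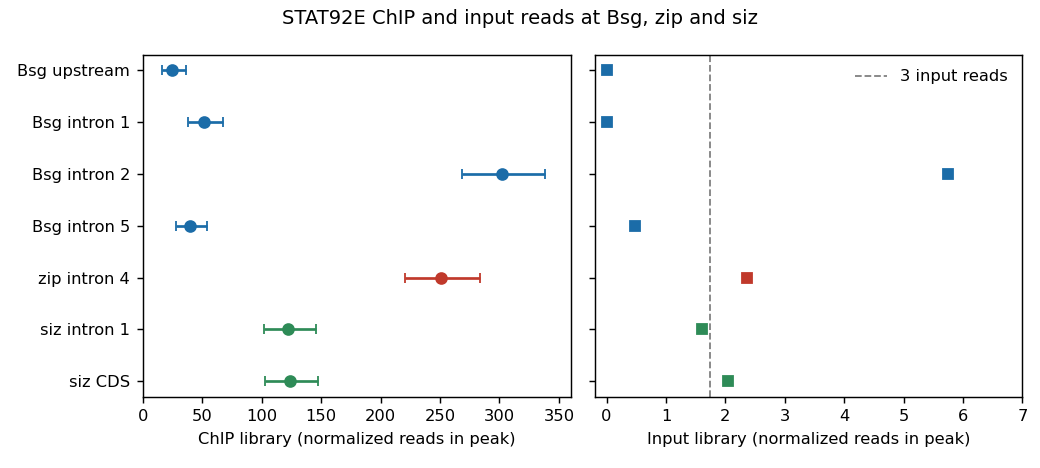
Normalized reads in each of the 7 peaks in the ChIP library (left, circles with exact Poisson 95% intervals) and in the input library (right, squares), with the level of 3 input reads as a dashed line. The second-intron peak of Bsg and the zip peak hold the most ChIP reads (301.9 and 250.9), and the upstream and first-intron peaks of Bsg have no input read.

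The 4 Bsg peaks lay on 2L within 23010 bp. The first, chr2L:8083270-8083369, is annotated 50 bp upstream of the gene. It held 24.5 ChIP reads (exact Poisson 95% interval 15.8 to 36.3) and no input read. With the input set to a floor of 3 reads, which correspond to 1.75 normalized reads, it was at least 14.0-fold higher in the ChIP library. This was the lowest number of reads among all 59 annotated peaks, and over the whole list the peak ranked 1412 of 1487 by reads. Its listed log2 ratio of 5.20 placed it at rank 978. With a pseudocount of 1 and no input read, the listed ratio corresponds to 35.75 ChIP reads, and any input read would raise that number. This is more than the peak itself held, so the window behind the ratio appears to have reached beyond this 100 bp peak.

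The second Bsg peak, chr2L:8088080-8088279 in the first intron, began 4710 bp beyond the first. It held 51.2 ChIP reads (38.1 to 67.3) and no input read, which is at least 29.3-fold. It was the longest of the Bsg peaks (200 bp), so that its density of 256 ChIP reads per kb was close to the 245 per kb of the upstream peak. Its listed log2 ratio was 5.40 and its rank 676.

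The third Bsg peak, chr2L:8099760-8099919 in the second intron, stood apart from its neighbours. It held 301.9 ChIP reads (269 to 338) against 5.75 in the input, a 52.6-fold enrichment (exact conditional 95% interval 28.1 to 111). It carried 72.4% of the ChIP reads of the 4 Bsg peaks (Wilson 95% interval 67.9% to 76.5%). Its reads were 5.90 times those of the first-intron peak (4.37 to 8.10) and 12.3 times those of the upstream peak (8.16 to 19.4), both differences beyond counting error. By reads it ranked 31 in the list and by reads per kb 15, whereas by the listed log2 ratio of 5.55 it ranked 505. Its input was also the highest of the 7 peaks, with 35.9 normalized reads per kb against at most 12.0 at the others. What part the higher input of this stretch had in its reads was not tested.

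The fourth Bsg peak, chr2L:8106160-8106279 in the fifth intron, held 39.4 ChIP reads (28.0 to 53.7) against 0.473 in the input. The ratio was 83.3, with an interval of 12.2 to 7010 because the input amounted to less than 1 read. It had the lowest listed log2 ratio of the 7 peaks (4.95, rank 1332) and was the only one of them with an FDR above 0 (0.00202). Thus the Bsg peak with the most precise enrichment was the one in the second intron, and the 3 weaker peaks each rested on fewer than 52 ChIP reads.

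The single zip peak, chr2R:20889520-20889749 in the fourth intron, held 250.9 ChIP reads (221 to 284) against 2.36 in the input. This is a 106-fold enrichment (41.2 to 387). Its listed log2 ratio of 6.86 was the highest of the 7 by more than 1 unit. In the order of the list it was peak 23, within the first 1.55%, and it was the fifth of the 59 annotated peaks. It was also the longest of the 7 peaks (230 bp), with 1091 ChIP reads per kb. Of the 132 peaks of the list with more than 3 input reads, 8 had a higher ratio than zip, 37 a higher ratio than the siz peak in the coding sequence and 67 a higher ratio than the second-intron peak of Bsg. Among these 132 peaks zip thus stood near the top by ratio, while the Bsg peak had more reads at about the median ratio. The zip peak was little past the limit, at 4.06 input reads. Its interval overlapped with that of the Bsg peak (28.1 to 111). Among the annotated peaks with any input it was 18th by ratio.

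The siz peaks lay 28340 bp apart on 3L and were nearly equal. The peak chr3L:21038790-21038959, in the first intron, held 122.2 ChIP reads (101 to 146) against 1.60 in the input, which is 76.4-fold (24.5 to 414). The peak chr3L:21067300-21067469, in the coding sequence, held 123.4 ChIP reads (103 to 147) against 2.04 in the input, which is 60.6-fold (21.8 to 255). Both were 170 bp long. The ratio of their ChIP reads was 1.01, with an interval of 0.780 to 1.31, so that a difference of more than about 1.31-fold between them lay outside the counting interval. Their ranks were nevertheless 406 and 702, because the listed log2 ratios were 5.64 and 5.38.

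**Figure D2:**
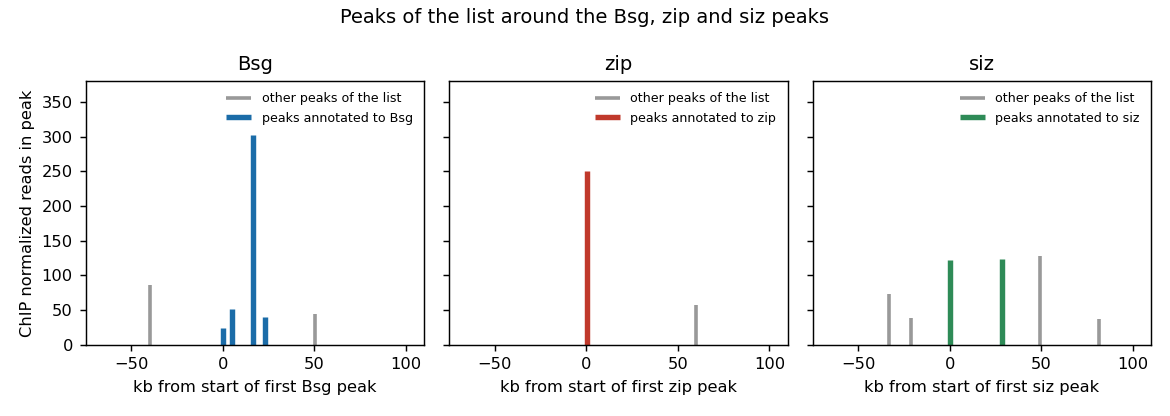
ChIP normalized reads of each peak against its distance in kb from the start of the first peak of Bsg, zip or siz, with peaks assigned to the gene in colour and other peaks of the list in grey. The 4 Bsg peaks lie within 23010 bp and 1 of them holds 72.4% of their reads, zip has a single peak, and the siz peaks, 28340 bp apart, are of equal height.

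When the 7 peaks were ordered by ChIP reads, each was compared with the next, in 6 pairs. The intervals of the second-intron peak of Bsg and the zip peak overlapped, so these peaks were not called different by that rule. The ratio of their reads was 1.20, with its own interval from 1.01 to 1.43, and per kb the Bsg peak was 1.73 times as dense (1.46 to 2.05). The zip peak held 2.03 times the reads of the siz peak in the coding sequence (1.63 to 2.54), and their intervals did not overlap. The siz peak in the first intron held 2.39 times those of the first-intron peak of Bsg (1.71 to 3.38), again without overlap. Among the 3 weak Bsg peaks no step to the next was beyond counting error, with ratios of 1.30 (0.841 to 2.02) and 1.61 (0.947 to 2.78). The ends of this group, the first-intron and the upstream peak, had intervals that did not overlap (38.1 to 67.3 against 15.8 to 36.3). These peaks differ in length (200 and 100 bp), and per kb they were close, at 256 and 245 reads. Per kb the first-intron peak was 0.780 times as dense as the fifth-intron peak (0.505 to 1.21).

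A fold or lower bound of at least 30 was reached by 5 of the 7 peaks, and by 73.1% of the list. This share is close to the background, so the 7 peaks are not set apart by it. The exceptions were the upstream and first-intron peaks of Bsg, both with no input read and so set against 3 assumed reads. The fifth-intron peak of Bsg, with fewer ChIP reads than the first-intron peak, passed at 83.3 on less than 1 input read. Which of these 2 peaks passed thus depended on the rule. Counting error of the input matters here. Every peak with at most 3 input reads was therefore also given a lower bound against the upper Poisson limit of its input. With that bound 3 of the 7 peaks reached 30-fold, against 31.7% of the list. The fifth-intron peak of Bsg then stood at 15.3, below the first-intron peak at 29.3. In the first 10% of the list there was 1 of the 7 peaks, zip, beside 9.95% by the definition of the rank. By ChIP reads the peaks in the first 10% were 2 (Bsg intron 2 and zip), and by ChIP reads per kb they were 4, with both siz peaks added. Both siz peaks and the second- and fifth-intron peaks of Bsg stood lower in the list than by their reads, and the upstream and first-intron peaks of Bsg and the zip peak stood higher.

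The input was above 3 reads at 3 of the 7 peaks (Bsg intron 2, zip and the siz peak in the coding sequence), against 8.88% of the list. These are peaks with many ChIP reads. More than 120 ChIP reads were found at 4 of the 7 peaks, against 11.6% of the list. Of the 172 peaks of the list with so many, 51.7% had an input above 3 reads, and of these 4 peaks 3 did. The limit of 120 lies just below the siz peaks. With a limit of 150 ChIP reads, added after seeing the data, 2 of the 7 peaks (Bsg intron 2 and zip) passed, against 6.19% of the list. Both had an input above 3 reads, as had 62% of the 92 peaks of the list past that limit. No input read was found at 2 of the 7 peaks, against 38.3% of the list. The listed FDR was 0 at 6 of them, against 70.5%. The listed -log10 Poisson p was at the cap of 100 at 4 peaks, both siz peaks among them, against 27% of the list. It was 66.9 at the fifth-intron peak of Bsg, and lower at the upstream and first-intron peaks (27.7 and 31.3). By this value the first-intron peak stood behind the fifth-intron peak although it held more reads in total.

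**Figure D3:**
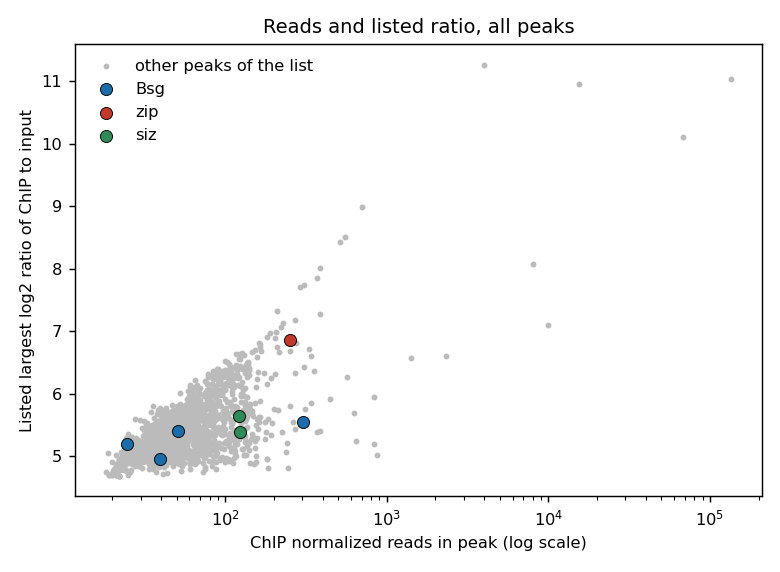
Listed largest log2 ratio of ChIP to input against ChIP normalized reads (log scale) for all 1487 peaks, with the Bsg, zip and siz peaks in colour. The zip peak (250.9 reads, log2 ratio 6.86) lies near the upper edge of the cloud, whereas the Bsg peak with the most reads (301.9) has a log2 ratio of 5.55.

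Within the peaks, the summit given in the list lay from 12.5 to 57.5 bp from the centre, with a median of 32.5 bp against 27.5 bp over the list. In both siz peaks the summit was on the side of lower positions, 57.5 bp from the centre in the first intron (position 21038817) and 47.5 bp in the coding sequence (21067337). It was on the same side at the zip peak and at the first- and second-intron peaks of Bsg. An offset larger than that of the first-intron peak of siz was found in 9.21% of the list, and one larger than that in the coding sequence in 19.4%. At the Bsg peak of the second intron the summit was at 8099827, 12.5 bp from the centre, and the position of the largest ratio was 2 bp away from it. That distance was 7 bp at both Bsg peaks without input and 57 bp at the fifth-intron peak. At zip the summit (20889597) and the position of the largest ratio were 48 bp apart, and at siz they were 68 bp apart in the first intron and 38 bp apart in the coding sequence. So reads and ratio peaked close together at Bsg intron 2 and at both Bsg peaks without input, and further apart at the other peaks. Over the peaks of the known pathway targets Socs36E, dome and Stat92E this distance ran from 2 to 83 bp. It is therefore no particular trait of zip and siz, and it was not compared over the whole list.

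The 4 Bsg peaks were separated by 4710, 11480 and 6240 bp, and no other peak of the list lay between them. Each of them had 3 other peaks within 25 kb, which was true of at least that many for 3.83% of the 1202 peaks on the chromosome arms. The assignment of 4 peaks to 1 gene fixes this in part, since the gene was published with all of them. The zip peak had no other peak within 25 kb. Each siz peak had 1 within that distance, in both cases a peak that is not assigned to a gene in the annotation, and 44.5% of the arm peaks had at least 1. Bsg was second only to Socs36E in its number of peaks among the 30 genes, a place it shared with other genes of 4 peaks.

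The annotation also counts STAT92E sites within 500 bp of each peak, defined as TTC and GAA with 2, 3 or 4 bases between them. The sequence was not searched again here, since a genome of the list's build was not used. By that count the upstream peak of Bsg had 3 sites, the other Bsg peaks, the zip peak and the siz peak in the coding sequence had 1 each, and the first-intron peak of siz had 0. The peak with the most sites was thus the one with the fewest ChIP reads, and the siz peaks, with 0 and 1 site, held equal reads. With 7 peaks of 3 genes this is a description.

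The 3 genes were set beside the known pathway targets of the same annotation, which are Socs36E (a suppressor of cytokine signalling), dome (the receptor) and Stat92E itself. Over their peaks, Socs36E had 2260 ChIP reads (2167 to 2355), dome 643.75 (595 to 695) and Stat92E 435 (395 to 478). Bsg had 417 (378 to 459), zip 250.9 (221 to 284) and siz 245.6 (216 to 278). The sum of Bsg therefore did not differ from that of Stat92E beyond counting error, whereas the sums of zip and siz were lower than those of all 3 known targets. These sums run over different numbers and lengths of peaks, 580 bp at Bsg, 230 bp at zip and 340 bp at siz against 1200 bp at Socs36E, 220 bp at dome and 330 bp at Stat92E. Per kb the reads were 719 at Bsg, 1091 at zip and 722 at siz, against 1883 at Socs36E, 2926 at dome and 1318 at Stat92E. By this measure Bsg was below Stat92E and zip. By single peaks the order also changed, since the weaker Stat92E peak held 67.25 reads, fewer than the zip peak and either siz peak. In enrichment no order was called, by overlap of the separate intervals alone. No interval was computed for the ratio of 2 folds, so overlap here does not show that they are equal. At the peak with the most reads of each gene, the fold was 74.8 at Socs36E (52.9 to 109), 36.6 at dome (25.4 to 54.6) and 42.9 at Stat92E (25.5 to 77.8). The intervals of Bsg intron 2, zip and both siz peaks overlapped with each of these.

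**Figure D4:**
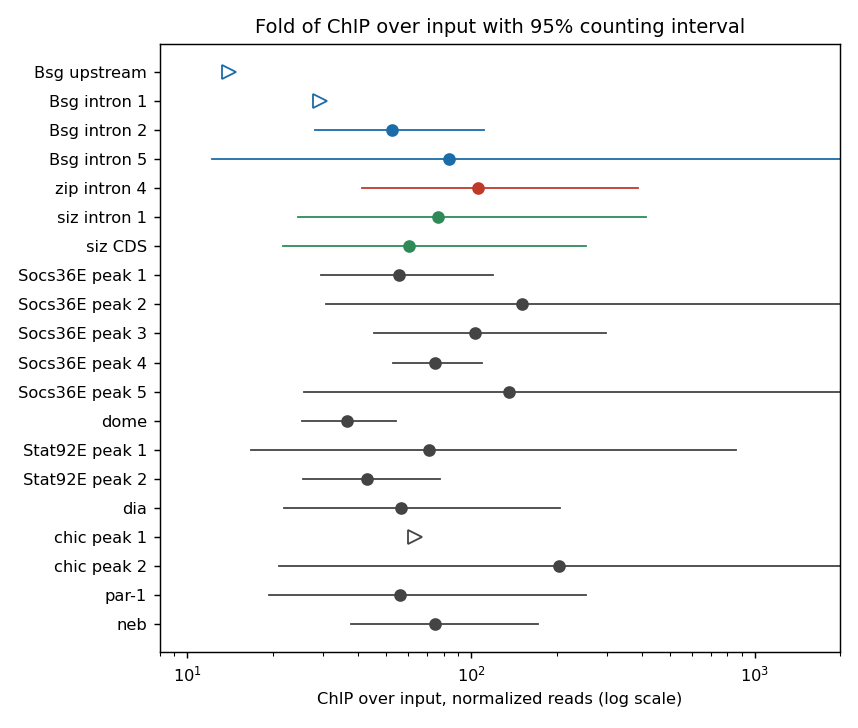
Fold of ChIP over input at each peak of Bsg, zip and siz (colour) and of the comparison genes (dark grey, peaks numbered by position), on a log axis with exact conditional 95% intervals, cut at the right edge where they run on. Open triangles are lower bounds at peaks without input reads. The intervals of zip (41.2 to 387) and siz overlap with those of Socs36E, dome and Stat92E.

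The other genes of the cytoskeleton and of cell polarity in the annotation were dia (Diaphanous, a formin that nucleates actin filaments), chic (profilin, which binds actin monomers), par-1 (a polarity kinase) and neb (a kinesin-like protein), with 5 peaks together. These had a median of 110 ChIP reads and a median log2 ratio of 5.65, against 122 reads and 5.40 at the Bsg, zip and siz peaks. The neb peak had 354.5 reads and ranked 77, and it was 74.4-fold enriched (37.6 to 172). The dia peak, in the coding sequence as 1 of the siz peaks is, had 136 reads and was 56.7-fold enriched (21.9 to 206). The par-1 peak had 106 reads at 56.1-fold (19.4 to 254). The chic peaks held 110 and 59.1 reads, the first of them without an input read. Among these genes and the 3 described here, only zip and neb peaks and 1 chic peak were in the first 10% of the list, and zip ranked highest.

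The genes of the annotation whose strongest peak was most like that of each gene were found by the distance in log2 ChIP reads and listed log2 ratio, over the 1 pair of libraries. For zip these were CG10623 (Bhmt in Release 6), at a distance of 0.0700 with 244 reads and a log2 ratio of 6.80, and CG5953, at 0.172 with 251 reads and 6.69. For Bsg they were MTA1-like, at 0.209 with 261 reads and 5.54, and Stat92E, at 0.327 with 368 reads and 5.39. For siz they were par-1 and mld, both at 0.272, with 106 and 136 reads. The likeness is of 1 peak per gene in these measures only.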

How the data were processed

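The authors sequenced 1 STAT92E ChIP library and 1 input library on an Illumina HiSeq instrument, and deposited 1 list of peaks called on this pair. The submitters' processing notes name CASAVA 1.8, Bowtie and the build dm3. The peak caller, its settings and the scaling of the libraries are not given in the sources used here. For each peak the authors deposited a rank and a test statistic (scores), an FDR, the -log10 of the smallest Poisson p-value (capped at 100), the largest log2 ratio, and the normalized signal of both libraries. The column marked M was taken as ChIP, after the mouse antibody, and the column marked I as input. Without total reads, library depth is unknown.

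Signals were multiples of a fixed step. With 16 steps to a read, an input read weighed 0.582 of a ChIP read. Read numbers here rest on that assumption. Fold was normalized ChIP over input reads with an exact conditional 95% interval, or, without input, a lower bound against 3 input reads. Neighbouring peaks within 25 kb were counted by the gap between their edges. All 7 peaks were named, with fixed comparison genes and the 2 genes most like each. The members and lists were chosen with earlier results of these data known. All 30 published symbols matched Release 6 gene records. Intervals were tested on simulated whole Poisson counts with a known input weight, not on values in parts of a read like those deposited. Python 3.11.15, numpy 2.4.6, pandas 2.3.3, scipy 1.17.1 and matplotlib 3.10.9 were used. No sequence is shown, since none of the list's build was used here.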

Additional observations from a re-analysis of the deposited data

How the results depend on the processing

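The 7 peaks were found under both other rules of overlap. Of these peaks, 5 reached 30-fold, 6 reached 20-fold (84.7% of the list) and 5 reached 50-fold (60.4%). With a Poisson upper limit for the input at peaks with at most 3 input reads, 3 reached 30-fold (31.7% of the list). These 3 had more input reads and kept their plain ratios. This bound can only lower a fold or leave it unchanged, and the first-intron peak of siz missed at 28.4. The number in the first 10% of the list was 1 by the list's order and on the chromosome arms alone, 2 by ChIP reads, 4 by ChIP reads per kb, and 0 by the Poisson p, where the peaks at the cap share an average rank of 201.5. Requiring more than 5 input reads in place of 3 left 1 peak, Bsg intron 2 (3.43% of the list), and requiring more than 1 gave 4 (33.3%). More than 120 ChIP reads were held by 4 peaks and more than 150 by 2, the second limit being chosen after seeing the data. Whole reads, a pseudocount of 1 and the listed ratio were also tried. All 7 folds stayed within their counting interval, or above the bound set by the lower ChIP limit. This is a weak check, since the intervals are wide and a pseudocount of 1 lies below the floor of 1.75. Under the pseudocount the folds ran from 25.5 to 74.9, and zip was highest. The fifth-intron peak of Bsg fell from 83.3 to 27.4 and the first-intron peak of siz from 76.4 to 47.4. The first-intron peak of Bsg rose from its bound of 29.3 to 52.2. At 30-fold it then passed, and the fifth-intron peak did not. By the listed ratio all 7 peaks passed (lowest 30.9).

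No paired analysis was possible because neither group has a second library. The alternatives for the STAT92E sites (8 over the 7 peaks) were not run, as no sequence of the list's build was used. Few input reads limit the precision of every fold.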

Other observations

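The peaks of the list next to the 3 loci are not assigned to a gene in the annotation, and they are given here as values. Beyond the siz peak in the coding sequence, 20.35 kb away, lay a peak from 21087820 to 21087989 on 3L with 127.6 ChIP reads against 0.873 in the input. It ranked 123 with a listed log2 ratio of 6.18, higher than either siz peak. On the other side of siz, 20.99 kb from the first-intron peak, a peak with 38.0 ChIP reads ranked 1385. The nearest peaks to Bsg were 39.86 kb before its first peak, with 86.25 ChIP reads (rank 1155), and 27.51 kb after its last, with 43.7 (rank 1474). The zip peak was the most isolated, with the next peaks 59.38 kb and 304.66 kb away, of 57.5 and 102 ChIP reads.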
